A study of Mus musculus with 26 samples.

Results

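Iqsec2, S100a1, Grik5, Gramd3, Myo7b, Pnmal1, Septin6, Bex1 and Hectd2os are 9 of the 18193 genes that probe sets of this array name alone. They are not known as mitochondrial genes, and they stood among the largest differences between mouse muscle labelled MKO, with a knockout of PGC-1a in skeletal muscle, and FLOX muscle on a control diet. Every probe set whose platform gene symbol was exactly 1 of these genes was taken, which gave 20 probe sets of the 45101 on the array. Septin6 had 7 of them, Iqsec2 had 3, Gramd3, Pnmal1 and S100a1 had 2 each, and the other genes had 1 each. The genes were chosen by the size of their control-diet difference between MKO and FLOX, so that difference is described here without being read as evidence. The mice on calorie restriction (CR) were not the measure of that choice, although earlier results of these data were known when it was made.

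RNA of the tibialis anterior and extensor digitorum longus muscles was hybridised to 1 array per mouse, from 7 CR MKO, 6 CR FLOX, 7 control-diet MKO and 6 control-diet FLOX mice. All were littermates, kept 1 to a cage, on a mix of C57/BL6 and 129 genomes, with at least 10 days of baseline intake recorded before 12 weeks of diet. CR mice received 80% of baseline intake in the first week and then a 40% restriction diet at 60% of intake for about 11 weeks, and control mice were held at 90% of their intake. The driver of the knockout, the age and the sex of the mice were not given in the labels used here. A Y-linked transcript, Eif2s3y, read 1192 to 2012 in all 26 mice, and the 3 Xist probe sets stayed between 95.7 and 181. The values are the authors' linear intensities per probe set, in arbitrary units, whose array medians lay between 212 and 232. Arrays of 1 group correlated at r = 0.983 to 0.996. Fast-fibre genes were the brightest marker list, with Myh4 averaging 28272 in CR MKO muscle and 28656 in CR FLOX muscle. In whole muscle, fewer cells of a type and less RNA per cell cannot be told apart.

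All 5 probe sets of Ppargc1a, the gene of PGC-1a, were brighter in mice labelled MKO, by 1.34-fold to 1.57-fold on CR (limma adjusted p up to 0.0136) and by 1.53-fold to 1.76-fold on the control diet. The sources used here do not say whether these probes lie inside the deleted part, so the probes do not check the genotype, and MKO stands below for mice so labelled.

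PGC-1a is a coactivator: it has no DNA-binding domain of its own and works through factors such as the oestrogen-related receptors (ERRs), NRF1 and MEF2. In skeletal muscle it is best known for raising mitochondrial and oxidative genes. The 9 genes come from other fields. Iqsec2 encodes an exchange factor for ARF GTPases, known at excitatory synapses, and Grik5 a subunit of kainate-type glutamate receptors. S100a1 is a calcium-binding protein of heart and skeletal muscle that modulates calcium release from the sarcoplasmic reticulum. Gramd3 encodes a protein with a GRAM domain, Myo7b an unconventional myosin of intestinal microvilli, and Pnmal1 a relative of the paraneoplastic Ma antigens. Septin6 is a GTP-binding protein that assembles into filaments, Bex1 a small X-linked adaptor protein, and Hectd2os a long non-coding RNA named after its neighbour Hectd2.

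Promoters are shown for genes that differed by genotype on both diets, because their differences were seen again in the CR mice. Septin6 also differed on both diets by its brightest probe set, but no RefSeq start was matched for it. RefSeq starts were matched for 5 of the 9 genes (S100a1, Iqsec2, Bex1, Hectd2os and Grik5), and Iqsec2 had starts at 2 positions. Each line gives the 250 bases before the start, 5′ to 3′ on the gene's own strand, in build GRCm38.p6, with every CG pair in capitals.
S100a1, chr3:90514331-90514580, minus strand: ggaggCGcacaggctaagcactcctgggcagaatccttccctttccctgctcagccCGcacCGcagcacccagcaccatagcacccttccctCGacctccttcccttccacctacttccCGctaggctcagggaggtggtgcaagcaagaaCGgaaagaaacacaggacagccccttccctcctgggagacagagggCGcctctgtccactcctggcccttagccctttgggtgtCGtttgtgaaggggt
Iqsec2 first start, chrX:152144018-152144267, plus strand: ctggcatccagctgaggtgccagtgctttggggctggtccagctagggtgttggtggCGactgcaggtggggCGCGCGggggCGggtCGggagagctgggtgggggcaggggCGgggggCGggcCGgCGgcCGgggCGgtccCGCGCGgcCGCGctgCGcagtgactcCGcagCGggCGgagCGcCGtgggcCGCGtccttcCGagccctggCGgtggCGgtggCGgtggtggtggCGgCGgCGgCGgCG
Iqsec2 second start, chrX:152178759-152179008, plus strand: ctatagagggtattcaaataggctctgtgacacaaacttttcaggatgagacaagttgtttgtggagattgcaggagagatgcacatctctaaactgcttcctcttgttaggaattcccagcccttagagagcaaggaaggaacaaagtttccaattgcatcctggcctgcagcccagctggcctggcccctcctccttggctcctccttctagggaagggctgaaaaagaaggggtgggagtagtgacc
Bex1, chrX:136215514-136215763, minus strand: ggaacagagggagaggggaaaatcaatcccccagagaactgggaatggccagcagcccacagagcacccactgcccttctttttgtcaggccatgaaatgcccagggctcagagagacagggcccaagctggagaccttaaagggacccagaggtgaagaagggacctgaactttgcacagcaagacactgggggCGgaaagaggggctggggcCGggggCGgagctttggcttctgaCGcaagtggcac
Hectd2os, chr19:36689480-36689729, minus strand: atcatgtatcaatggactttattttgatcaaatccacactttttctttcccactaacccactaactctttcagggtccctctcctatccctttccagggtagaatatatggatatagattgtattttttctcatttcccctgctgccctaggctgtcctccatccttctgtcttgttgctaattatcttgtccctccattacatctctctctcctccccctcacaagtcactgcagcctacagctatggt

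The first Iqsec2 start lay in the richest of these windows, with 34 CG pairs and 80% G plus C, while the second start had 0 CG pairs and 50% G plus C. S100a1 had 8 CG pairs, Bex1 4 and Hectd2os 0. Over all 32851 RefSeq mouse promoters in the table the median was 6 pairs and 52.4%. The 250 bases before each start were searched on both strands for the ERR element core AAGGTCA (in 4.08% of all promoters), its extended form TCAAGGTCA, which contains the core (0.387%), the NRF1 core GCGCATGC (2.26%) and the MEF2 site (3.20%). None of these letters occurred in the 6 promoters of the 9 genes, which says only that these windows do not hold them.

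In the CR mice, 7 of the 20 probe sets passed limma's test between MKO and FLOX (Benjamini-Hochberg adjusted p under 0.05 over 45037 probe sets), 3 higher and 4 lower in MKO. Across all probe sets 10.7% passed on CR, 5.4% higher and 5.33% lower. By the brightest probe set of each gene, 5 of 9 genes passed: Iqsec2 and S100a1 fell, and Septin6, Bex1 and Hectd2os rose. Gramd3, Grik5, Myo7b and Pnmal1 did not pass. On the control diet, which chose the genes, 11 of 20 passed (background 11.6%), 3 higher (background 5.59%) and 8 lower (background 6.03%), and this count only restates the choice. The plot of every mouse shows both kinds of gene side by side. Against 18.2% of all genes on CR and 20.4% on the control diet, 1 of 7 slow-fibre markers passed on each. Their summed intensity ran over 8589 to 23524 in CR MKO mice and 4889 to 8449 in CR FLOX mice, without overlap, and over 7523 to 12940 in control-diet MKO mice and 3787 to 11375 in control-diet FLOX mice, with overlap. The part of this in the differences below was not tested.

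**Figure D1:**
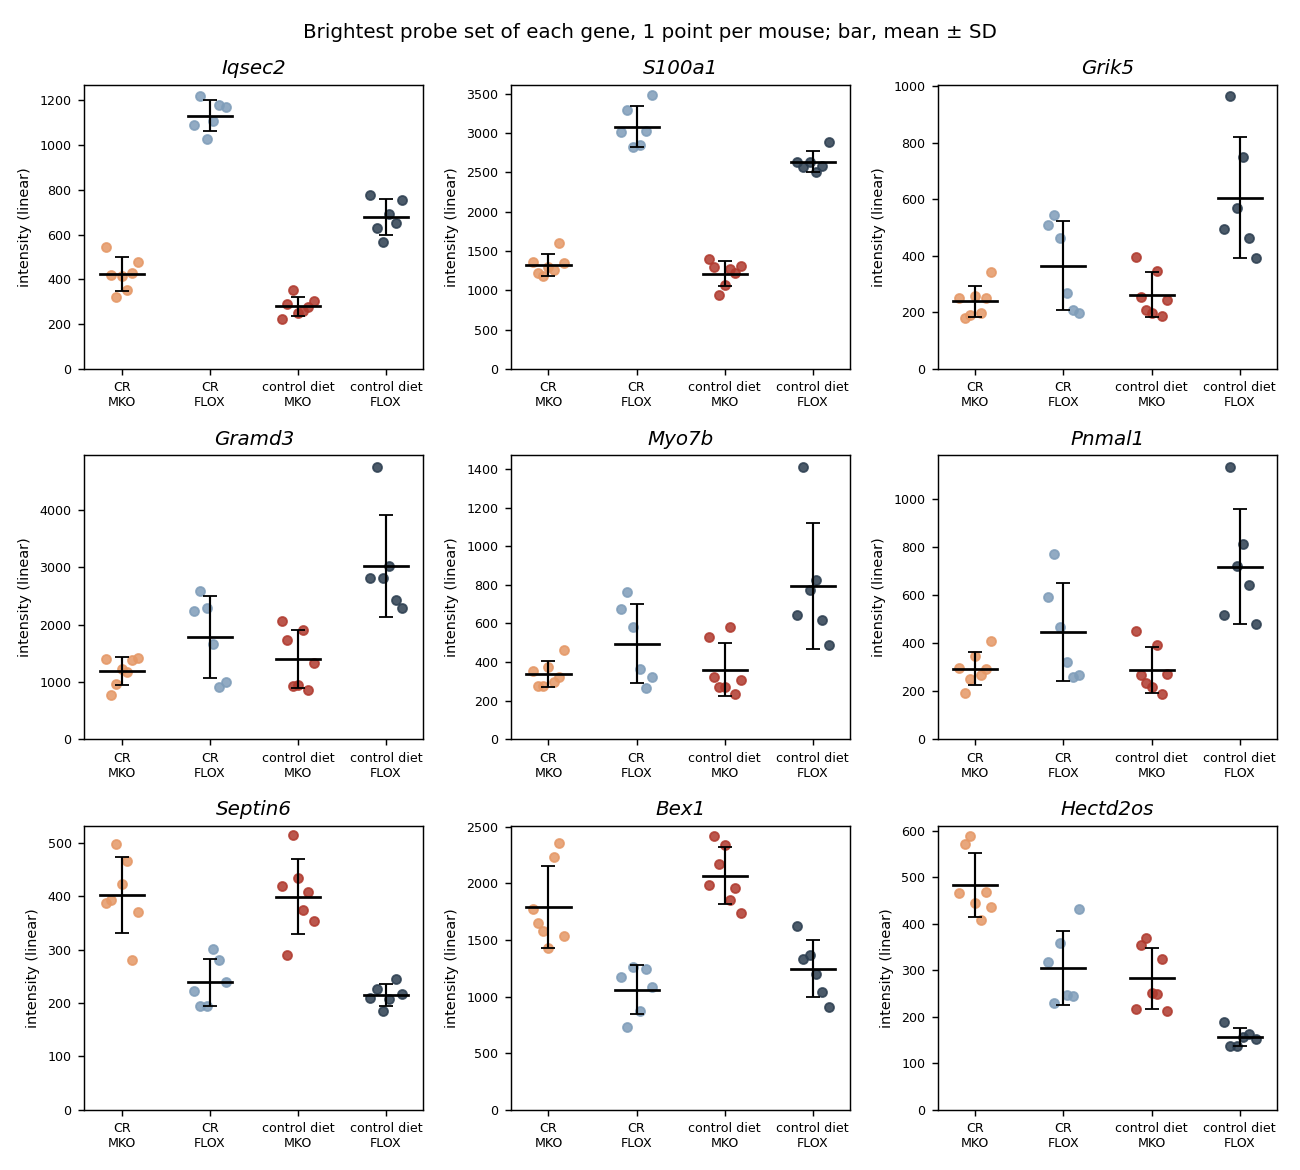
Linear intensity (arbitrary units, axis from 0) of the brightest probe set of each of the 9 genes, with 1 point per mouse, a horizontal bar at the group mean and whiskers of 1 SD (CR MKO n = 7, CR FLOX n = 6, control-diet MKO n = 7, control-diet FLOX n = 6). Iqsec2, S100a1 and Bex1 separate MKO from FLOX on both diets, while Grik5, Gramd3, Myo7b and Pnmal1 spread widely within FLOX. For Grik5, Myo7b and Pnmal1, 3 CR FLOX points each lie in or below the CR MKO range.

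Iqsec2, the synaptic ARF exchange factor, showed one of the largest differences on the array. On CR its intensity was 322, 420 and 545 (lowest, median and highest) in MKO mice and 1025, 1138 and 1219 in FLOX mice. Every CR MKO mouse lay below every CR FLOX mouse, so the groups did not overlap. Such a separation, in either direction, held for 4 of the 20 probe sets on CR, against 5.1% of all probe sets. The log2 difference was -1.40 ± 0.10 (SE), 2.64-fold lower in MKO (adjusted p = 1.24e-10), rank 3 by size among all 45037 probe sets. Control-diet values were 221, 275 and 352 in MKO mice and 569, 671 and 779 in FLOX mice, again without overlap (8 of the 20 probe sets, against a background of 3.98%), a log2 difference of -1.24.

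Of its other probe sets, 1448063_at had a log2 difference of -0.15 on CR, short of the threshold (limma adjusted p = 0.0592). On the control diet, which chose the genes, it was at -0.24 and passed (limma adjusted p = 0.00152). On each diet 6 of the 7 MKO mice lay below every FLOX mouse for 1448063_at. The differences of 1444621_at were 0.08 on CR and 0.03 on the control diet. The mean of 1448063_at was 261 in CR MKO mice and 290 in CR FLOX mice, so the large difference rests on 1436622_at. Iqsec2 also differed by diet through 1436622_at. Averaged over both genotypes, with weights that make this contrast uncorrelated with the one that chose the genes, it was higher on CR by 0.64 ± 0.07 on the log2 scale (1.56-fold, adjusted p = 2.59e-07). The mean was 423 ± 74.4 in CR MKO mice and 279 ± 42.8 in control-diet MKO mice (SD, n = 7 each). In FLOX mice it was 1131 ± 70.7 on CR and 679 ± 79.0 on the control diet (SD, n = 6 each). By 1436622_at, Iqsec2 was thus brighter on CR in both genotypes, and CR MKO muscle stayed below control-diet FLOX muscle. The highest CR MKO value was 545 and the lowest control-diet FLOX value 569. The averaged diet effect was 0.04 for 1448063_at (limma adjusted p = 0.471) and 0.01 for 1444621_at (limma adjusted p = 0.861). The diet difference therefore also rests on 1436622_at.

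S100a1, the calcium-binding regulator of calcium release, fell in MKO by both of its probe sets. Its brightest probe set, 1419814_s_at, read 1178, 1293 and 1603 in CR MKO mice and 2818, 3020 and 3488 in CR FLOX mice, and the second, 1417421_at, read 1049, 1179 and 1272 in CR MKO mice and 2251, 2341 and 2640 in CR FLOX mice. Neither probe set overlapped between the genotypes on either diet. The log2 differences on CR were -1.21 ± 0.07 (adjusted p = 1.06e-11) and -1.03, 2.32-fold and 2.05-fold lower in MKO, and on the control diet they were -1.12 and -0.97. The brightest probe set read 938, 1265 and 1393 in MKO mice and 2510, 2604 and 2894 in FLOX mice on the control diet. The averaged effect of CR on it was 0.17 ± 0.05 on the log2 scale (1.13-fold higher, adjusted p = 0.0240). That on 1417421_at was 0.07 and did not pass (limma adjusted p = 0.435).

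The 3 genes that were higher in MKO had smaller differences. Septin6, the filament-forming GTPase, read 280, 393 and 497 in CR MKO mice and 194, 231 and 302 in CR FLOX mice. In CR mice, 6 of the 7 MKO values lay above every FLOX value, and the lowest MKO mouse fell within the FLOX range. The log2 difference was 0.72 ± 0.12 (1.64-fold, adjusted p = 0.000114) on CR and 0.83 on the control diet, where the values were 291, 408 and 515 in MKO mice and 185, 213 and 246 in FLOX mice.

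The other 6 Septin6 probe sets did not share this. Their log2 differences lay between -0.22 and 0.06 on CR, and 1431973_at was lower in MKO there (-0.22, adjusted p = 0.0318), with a mean of 170 in CR MKO mice and 200.2 in CR FLOX mice. Of the 7 Septin6 probe sets, 5 lay below the 30th percentile of brightness used for the gene-level fit, and 1424181_at, at a mean of 321, was the brightest. The rise of Septin6 is therefore that of 1 probe set of 7.

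Bex1, the small X-linked adaptor protein, read 1428, 1651 and 2359 in CR MKO mice and 730.3, 1131 and 1259 in CR FLOX mice. It had 1 probe set, and the genotypes did not overlap on either diet. The log2 difference was 0.75 ± 0.14 (1.68-fold, adjusted p = 0.000365) on CR and 0.74 on the control diet, where MKO mice read 1741, 1984 and 2423 and FLOX mice read 907, 1267 and 1625. No averaged diet effect passed the test for Bex1 (-0.22, 95% interval -0.42 to -0.03).

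Hectd2os, the non-coding RNA, was higher in MKO and higher on CR. It read 408, 466 and 588 in CR MKO mice and 229, 282 and 431 in CR FLOX mice, a log2 difference of 0.66 ± 0.14 (1.58-fold, adjusted p = 0.00134), and 6 of 7 MKO values lay above every FLOX value. Control-diet mice read 212, 252 and 369 when MKO and 137, 154 and 188 when FLOX, a log2 difference of 0.78. The averaged effect of CR was 0.81 ± 0.10 on the log2 scale (1.75-fold higher, adjusted p = 9.70e-07). Its mean was therefore lowest in control-diet FLOX mice (156 ± 19.2) and highest in CR MKO mice (483 ± 69.1). The control-diet MKO group (283 ± 65.4) and the CR FLOX group (305 ± 79.7) stood next to each other between them, closer than either group's SD.

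Pnmal1, the relative of the Ma antigens, had the widest gap of the 9 between its differences on the 2 diets. It read 192, 293 and 411 in CR MKO mice and 257, 394 and 771 in CR FLOX mice, groups that overlapped. The log2 difference was -0.49 ± 0.24 (95% interval -0.98 to -0.01, adjusted p = 0.210). On the control diet it read 189, 267 and 449 in MKO mice and 479, 682 and 1135 in FLOX mice, without overlap and with a log2 difference of -1.27. Its second probe set, 1439289_s_at, differed by 0.01 on CR and -0.02 on the control diet.

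Grik5, the kainate receptor subunit, read 180, 249 and 342 in CR MKO mice and 198, 365 and 545 in CR FLOX mice. The log2 difference was -0.50 ± 0.23 (95% interval -0.98 to -0.02, adjusted p = 0.196) on CR and -1.14 on the control diet. Control-diet MKO mice read 188, 244 and 394 and FLOX mice read 392, 532 and 965, and the groups overlapped by the highest MKO and the lowest FLOX mouse.

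Gramd3, the GRAM-domain gene, read 772, 1224 and 1411 in CR MKO mice and 911, 1953 and 2589 in CR FLOX mice, a log2 difference of -0.50 ± 0.24 (95% interval -0.998 to 0.01, adjusted p = 0.229). On the control diet it read 865, 1330 and 2063 in MKO mice and 2296, 2810 and 4750 in FLOX mice, a log2 difference of -1.14 without overlap. The second Gramd3 probe set, 1428737_s_at, differed by -0.02 on CR and by -0.07 on the control diet, with means of 272 in CR MKO mice and 275 in CR FLOX mice.

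Myo7b, the microvillar myosin, read 275, 322 and 463 in CR MKO mice and 267, 474 and 763 in CR FLOX mice, a log2 difference of -0.45 ± 0.24 (95% interval -0.94 to 0.05, adjusted p = 0.283). The lowest of all CR values was that of a FLOX mouse. Control-diet MKO mice read 237, 310 and 583 and FLOX mice read 489, 707 and 1411, with overlap and a log2 difference of -1.10. For Pnmal1, Grik5, Gramd3 and Myo7b, leaving out each mouse in turn gave adjusted p values on CR between 0.0819 and 0.560. The 4 intervals run to differences near 2-fold lower in MKO, so a missed threshold does not show that the genotypes were alike on CR.

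**Figure D2:**
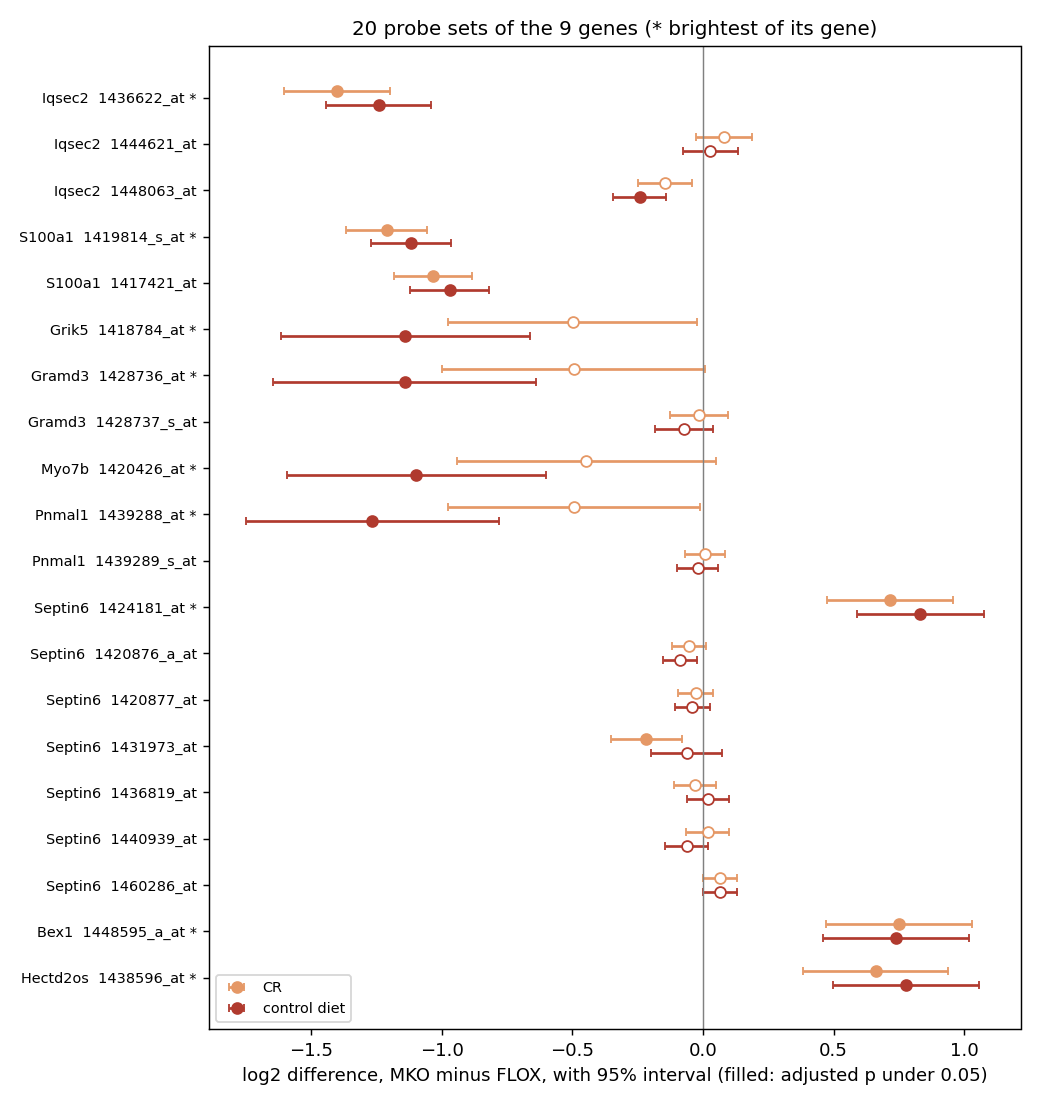
The log2 difference, MKO minus FLOX, of all 20 probe sets on CR (upper of each pair) and on the control diet (lower), with 95% intervals; filled points have an adjusted p under 0.05 and an asterisk marks the brightest probe set of a gene. The bars of S100a1 and of the brightest Iqsec2 probe set are short and lie near -1 or beyond on both diets, those of Grik5, Gramd3, Myo7b and Pnmal1 are long and reach near 0 on CR, and most second probe sets of Septin6, Gramd3 and Pnmal1 lie at 0.

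The effect of the knockout was compared between the diets by the interaction of diet and genotype, which contains the contrast that chose the genes and is a description. It passed limma's adjusted threshold for 0 of 20 probe sets and for 0 of 45037 (0% background). At an unadjusted p under 0.05, 1 of 20 passed, against 4.68% (2106) of all probe sets. That probe set was the brightest of Pnmal1, at 0.77 ± 0.33 (limma, unadjusted p = 0.0281, adjusted p = 0.99990).

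For the averaged effect of CR against the control diet, 3 of the 20 probe sets passed, against 16.3% of all probe sets (7.86% higher). They were the brightest probe sets of Hectd2os, Iqsec2 and S100a1 given above, all higher on CR. Gramd3 was at -0.47 (adjusted p = 0.0607) and Grik5 at -0.41 (adjusted p = 0.0958). Gramd3 passed without any 1 of 6 mice (control-diet MKO 3, 4 and 6, and CR FLOX 1, 2 and 3, adjusted p from 0.0283), and without CR FLOX mouse 2 the count was 5, since Grik5 passed as well (adjusted p = 0.0467).

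Gramd3, Grik5, Myo7b and Pnmal1, which passed on the control diet that chose them and not on CR, varied widely between mice. This was least clear within the CR MKO group. Within CR FLOX mice the coefficient of variation was 39.8% for Gramd3, 43.3% for Grik5, 41.5% for Myo7b and 46.0% for Pnmal1, against 26.1% for Hectd2os, 20.2% for Bex1, 18.6% for Septin6, 8.46% for S100a1 and 6.25% for Iqsec2. Within CR MKO mice the order was less clear, with 19.7% for Myo7b and 20.1% for Bex1. For control-diet MKO mice the coefficient was 36.2% for Gramd3, 30.1% for Grik5, 38.3% for Myo7b and 33.1% for Pnmal1. The other genes reached at most 23.1% there (Hectd2os). Among control-diet FLOX mice it was 29.5%, 35.4%, 41.0% and 33.3% in the same order, and at most 20.4% (Bex1) for the other genes. This variation was shared. After subtracting each group's mean on the log2 scale, the 6 pairs among Gramd3, Grik5, Myo7b and Pnmal1 correlated over the 26 mice at Pearson's r = 0.89 to 0.97 and Spearman's rho = 0.90 to 0.97. Permuting mice within groups gave an adjusted p of 6.00e-05 over 36 pairs for each, from the smallest p that 100000 permutations can give, 1e-05.

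Within the single groups r lay between 0.74 and 0.99, and without the 2 mice farthest from the median it lay between 0.87 and 0.97. The same mice stood out in each gene. In control-diet FLOX muscle, mouse 2 was the highest for all 4 genes (Gramd3 4750, Grik5 965, Myo7b 1411 and Pnmal1 1135). In CR FLOX muscle, mice 5 and 6 were the lowest for all 4 genes (Gramd3 911 and 991, Grik5 208 and 198, Myo7b 267 and 321, Pnmal1 257 and 267), and mice 1, 2 and 3 lay above every CR MKO mouse.

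**Figure D3:**
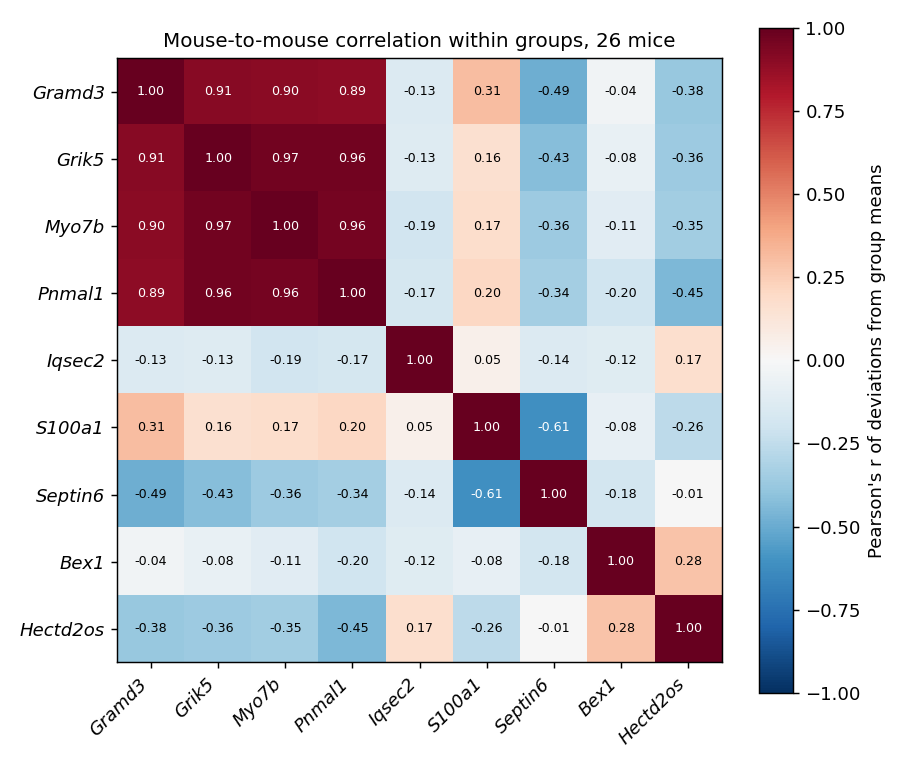
Pearson's r between the 9 genes over 26 mice, from log2 deviations from each group's mean (colour scale from -1 to 1, r printed in each cell). Gramd3, Grik5, Myo7b and Pnmal1 form a block at 0.89 or above, and no other pair exceeds 0.31.

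The other 30 pairs had r between -0.61 and 0.31. Of these, S100a1 with Septin6 had r = -0.61 (adjusted p = 0.0225), while Spearman's rho of -0.52 missed the threshold (adjusted p = 0.0736) and r without the 2 farthest mice was -0.40. Within single groups r was -0.93 in CR MKO, -0.19 in CR FLOX, -0.70 in control-diet MKO and -0.06 in control-diet FLOX mice, and the difference between these groups was not tested. The remaining 29 pairs passed neither test.

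**Figure D4:**
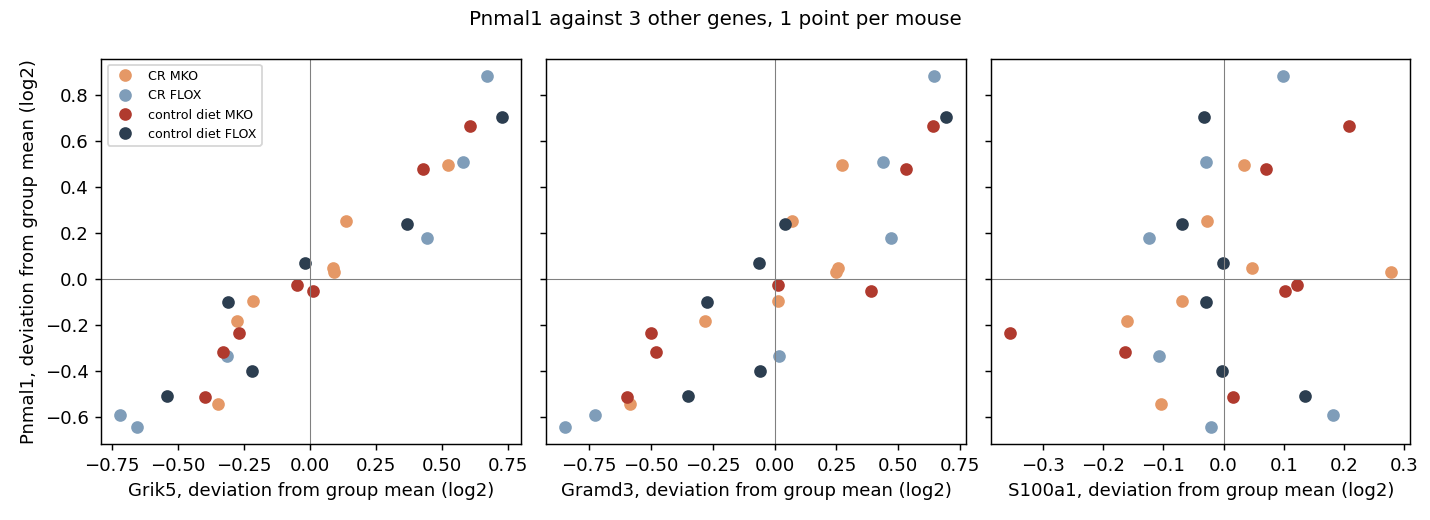
Log2 deviation of Pnmal1 from its group mean against those of Grik5, Gramd3 and S100a1, 1 point per mouse, coloured by group. The points lie along a line for Grik5 (r = 0.96) and Gramd3 (r = 0.89), with mice of all 4 groups along its length, and not for S100a1 (r = 0.20).

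The genes most like each of the 9 across mice were sought by the same deviations among 14087 other genes, 1 probe set each. These r values are a description over 26 arrays that share preparation and scaling. Gramd3 was most like Sf1 (r = 0.98), a splicing factor, and Pllp (r = 0.98). Grik5 was most like Tmem41b (r = 0.97) and Speer3 (r = 0.97). Myo7b was most like Sp6 (r = 0.98), a zinc-finger transcription factor, and Pnmal1 like Speer3 (r = 0.97). At r of 0.9 or more, Gramd3 had 21 such genes, Grik5 50, Myo7b 42 and Pnmal1 39.

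In all, 55 genes reached 0.9 with at least 1 of these 4, and 8 reached it with all 4: Cdan1, D930028M14Rik, Mtx1, Pllp, Snx9, Sp6, Tmem41b and Trim33. Of the 55, 1 was called on CR (background 18.2% of 14088 genes), with a median log2 difference of -0.30 over the 55. On the control diet 54 were called lower in MKO (background 10.8% called lower), with a median of -0.69 over the 55. Since these genes were picked for following the 4 from mouse to mouse, neither count supports them. Of the 54 other probe sets of these genes that were bright enough to test, belonging to 29 of the genes, 0 reached r of 0.9 and the median of their highest r was 0.11 (range -0.47 to 0.71). The second probe sets of Gramd3 and Pnmal1 likewise had r of -0.26 and 0.27 with the first. Over the whole array 92 other probe sets reached 0.9 with at least 1 of the 4, of which 73 named 1 gene, 1 named several and 18 named none. The cause of the shared pattern was not tested.

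The remaining 5 genes had looser company. Septin6 was followed closely by Car3 (r = 0.91), the muscle carbonic anhydrase, and then by Ankhd1 (r = 0.77). Bex1 was most like the clock gene Arntl (r = 0.80) and Dyrk2 (r = 0.77). Iqsec2 was most like Got2 (r = 0.80), the mitochondrial aspartate aminotransferase, and Elp5 (r = 0.72). S100a1 was most like Drg2 (r = 0.84) and Pex16 (r = 0.81), and Hectd2os like the kinase gene Pdpk1 (r = 0.80) and Ndufaf4 (r = 0.77). None of Iqsec2, S100a1, Bex1 and Hectd2os had a gene at 0.9.

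Relatives of the 9 genes, listed by family, were tested in the gene-level fit. Of 61 other family members, 8 passed on CR, 5 higher and 3 lower in MKO, and 9 passed on the control diet, 7 higher and 2 lower. Over all genes 18.2% passed on CR (8.69% higher and 9.52% lower) and 20.4% on the control diet (9.57% higher and 10.8% lower). The families' median log2 difference was -0.01 on both diets, and that of all genes -0.02 on both. The CR count fell to 5 without CR MKO mouse 2. With arrays centred on their medians, the split was 6 higher and 2 lower on CR, and 9 higher and 0 lower on the control diet.

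Among the septins, 4 of 10 passed on CR, against 18.2% of all genes. Septin11 averaged 1691 ± 183 in CR MKO mice (n = 7) and 1081 ± 74.9 in CR FLOX mice (SD, n = 6), a log2 difference of 0.63 ± 0.11 (adjusted p = 0.000214), with 0.49 on the control diet. Septin7, the core subunit of septin filaments, was higher by 0.15 on CR and by 0.15 on the control diet. Septin9 was lower, at -0.16 on CR and -0.14 on the control diet. Septin8 passed on CR at -0.21 and was at -0.07 on the control diet, and the difference was not tested. Septin10 passed on the control diet at 0.23 and was at 0.12 on CR.

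In the BEX and TCEAL family, small X-linked genes that neighbour each other, 2 of 6 passed on each diet, and both were higher in MKO. The share of all genes called higher was 8.69% on CR and 9.57% on the control diet. Tceal8 averaged 634 ± 42.8 in CR MKO mice (n = 7) and 458 ± 34.1 in CR FLOX mice (SD, n = 6), a log2 difference of 0.46 (adjusted p = 1.50e-05), with 0.42 on the control diet. Tceal7 was at 0.36 (adjusted p = 0.0456) on CR and 0.44 on the control diet. Hectd2, a ubiquitin ligase gene, averaged 303 ± 16.4 in CR MKO mice and 247 ± 36.2 in CR FLOX mice, a log2 difference of 0.29 (adjusted p = 0.00952), with 0.35 on the control diet.

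The families of the genes that were lower gave few calls, where 18.2% of all genes passed on CR and 20.4% on the control diet. Of 34 relatives tested (9 glutamate receptor genes, 19 unconventional myosins, 3 GRAM-domain genes, 2 IQSEC genes and 1 PNMA gene), limma called 0 on CR, where 7 had an unadjusted p under 0.05, and 1 on the control diet. Of 8 S100 genes, 1 passed on CR, S100a13 at -0.21 (adjusted p = 0.00810). The control-diet calls in these families were Iqsec1, lower (-0.15), and S100a5, higher (0.14).

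**Figure D5:**
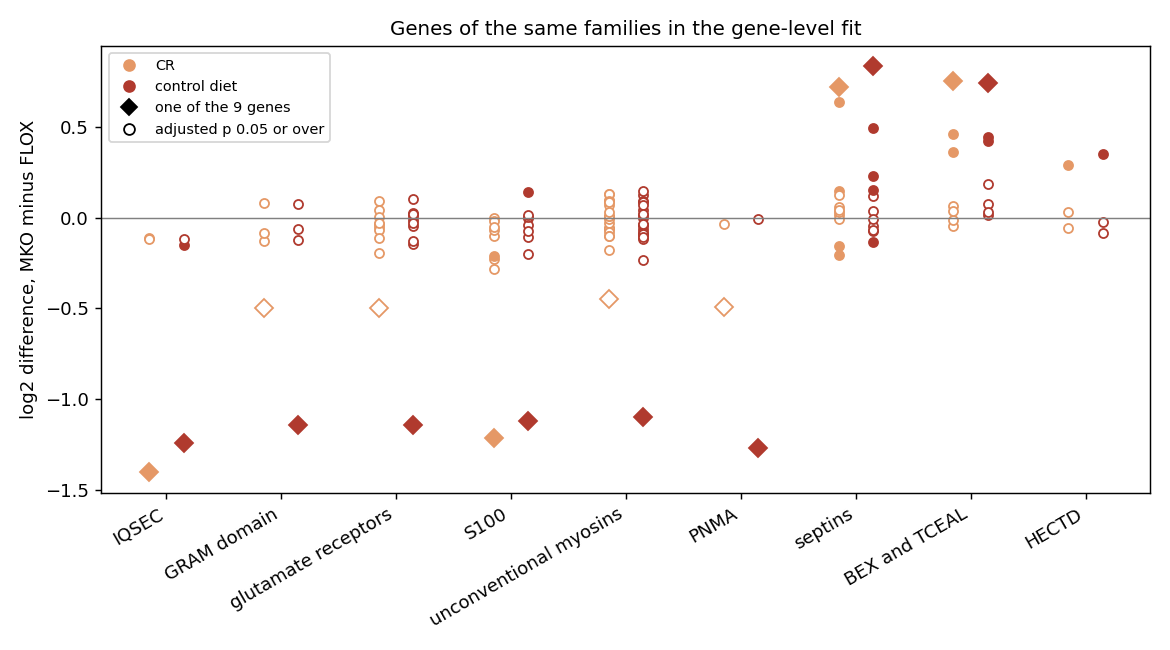
Log2 difference, MKO minus FLOX, of the genes in each family (circles) and of the 8 of the 9 genes that belong to a family shown (diamonds, without Hectd2os) in the gene-level fit, on CR (left column of each family) and on the control diet (right column); filled symbols have an adjusted p under 0.05. Septin11 at 0.63 on CR and the Tceal7 and Tceal8 pair lie nearest to their family's diamond, and the circles in the families of the lower genes lie well above those genes' control-diet diamonds.

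The nearest measured genes on either side of each of the 9 were taken from the RefSeq gene order. Of these 18 neighbours, 5 passed on CR, 4 higher and 1 lower, and 5 on the control diet, 4 higher and 1 lower, where 18.2% of all genes passed on CR and 20.4% on the control diet. Tceal8, Tceal7, Hectd2 and S100a13 are among these calls and were also counted with the families. Bex1 lay between Tceal8 and Tceal7, both higher in MKO as given above, and Hectd2os beside Hectd2. Chtop, next to S100a1 on chromosome 3, was higher by 0.22 ± 0.07 on CR (adjusted p = 0.0323) and by 0.39 on the control diet, the opposite of S100a1, while S100a13 on its other side was lower on CR. Rabac1, next to Grik5 on chromosome 7, was at 0.04 on CR and lower on the control diet, at -0.15. The neighbours of Iqsec2, Septin6, Pnmal1, Gramd3 and Myo7b did not pass on either diet.

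Marker lists of cell types in muscle were set beside these results. The shares of all genes called were 18.2% on CR (8.69% higher, 9.52% lower) and 20.4% on the control diet (9.57% higher, 10.8% lower). Slow-fibre genes had 1 of 7 called on each diet, with median log2 differences of 0.50 on CR and 0.50 on the control diet. Myl2 was the one on CR (1.26, adjusted p = 0.0121) and Myl3 the one on the control diet (1.24, adjusted p = 0.000356). Of 9 endothelial markers, 3 were lower in MKO on CR and 2 on the control diet. At an unadjusted limma p under 0.05 there were 6 on CR and 4 on the control diet. Their median log2 difference was -0.16 on CR and -0.13 on the control diet. Their sums ran over 5791 to 7276 in CR MKO mice and 6811 to 7451 in CR FLOX mice. Of 9 tested nerve and Schwann markers limma called 0 on either diet (0 at an unadjusted p under 0.05), with sums of 2925 to 4001 in CR MKO mice and 2931 to 4517 in CR FLOX mice. Of 11 denervation markers 0 passed on CR (3 at an unadjusted p under 0.05) and 4 on the control diet, 2 in each direction. Of 8 fibroblast and tendon markers 1 was higher on CR, and on the control diet 1 was higher and 1 lower. At an unadjusted limma p under 0.05 there were 5 on CR and 2 on the control diet. The median log2 difference of these 8 was nonetheless below 0, at -0.13 on CR and -0.15 on the control diet. The fast-fibre, leukocyte and adipocyte lists gave 0 calls on CR (2 of 9, 1 of 6 and 0 of 3 at an unadjusted p under 0.05), and on the control diet 1 leukocyte marker was lower in MKO and the other 2 lists gave 0 calls (1 of 9 and 0 of 3). No probe set value on any array was at or below 0. Of 72 within-group correlations between the 9 genes and the lists, 0 passed at an adjusted p under 0.05 and 8 at an unadjusted one. The smallest p was that of Septin6 with 3 adipocyte markers (r = -0.50, rho = -0.57, adjusted p = 0.266 and 0.230), and Hectd2os with the leukocyte markers had a slightly larger r of -0.52. The part of these cell types in the genotype differences was not tested.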

How the data were processed

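Muscle RNA of 26 mice was measured on 1-colour Affymetrix mouse arrays, from biotin-labelled cRNA per the labels. The deposited table holds the authors' linear intensity per probe set; their background correction, summary and normalisation are not given in the sources used here. Array medians lay between 212 and 232 and highest values between 37243 and 38435, and the number of arrays limits the precision. Mice were grouped by the labels, and limma's p-values set group differences against the spread between mice within groups.

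Symbols came from the platform annotation: 34945 probe sets named 1 gene, 932 several, 9160 none, and 64 were controls. Values were fitted as log2(intensity + 16) with limma 3.58.1 (R 4.3.3), 1 mean per group over all arrays, over the 45037 non-control probe sets with no filter, and p-values were Benjamini-Hochberg adjusted. Fold changes are on that scale, which understates those of dim probe sets. A second fit used 14088 genes, each by its brightest probe set naming 1 gene, at or above the 30th percentile of mean log2 intensity (7.58). Of the 20 probe sets described, 13 passed that filter. Correlations were tested by permuting mice within groups. No slide or scan batch was given. The fit was tested on simulated data.

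The 9 genes and all gene lists were chosen with earlier results of these data known. Named are all probe sets of the 9 genes, Ppargc1a, every family gene called, neighbours called and the leading like genes; the 8 genes like all 4 were listed after their values were seen. Alternatives were other pseudocounts, between-array normalizations, filters, array weights, a trended robust prior, the arrays of 1 diet alone, the mean over probe sets, the replicate number as a block and leaving out each mouse.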

Additional observations from a re-analysis of the deposited data

Results flagged for a closer look

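Within groups of 6 or 7 mice, 80 sets of values were examined for a lowest or highest mouse that stood apart from the others by Dixon's 95% criterion on the log2 scale. Chance flags about 1 in 20, or 4 sets, and 4 were found. For the brightest S100a1 probe set, control-diet FLOX mouse 6 read 2894, and the other 5 mice of its group lay between 2510 and 2631. It was the highest FLOX value on that diet, away from the MKO range of 938 to 1393. The other 3 concern dim Septin6 probe sets below the brightness filter. For 1420877_at, control-diet FLOX mouse 2 read 110.3, and the others of its group 115 to 117. For 1436819_at, CR MKO mouse 6 read 123, and the others of its group 136 to 147, and control-diet FLOX mouse 2 read 134, and the others of its group 144 to 148. Control-diet FLOX mouse 2 was also the highest of its group for Gramd3, Grik5, Myo7b and Pnmal1.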

How the results depend on the processing

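The 5 genes called on CR by their brightest probe set kept that call under the 9 other settings and without each mouse in turn, and Gramd3, Grik5, Myo7b and Pnmal1 passed on CR under none of these. The number of the 20 probe sets called on CR was 6 to 8, and 11 to 12 on the control diet. Leaving out single mice gave 3 to 5 calls for the averaged diet effect, with 5 without CR FLOX mouse 2, and 5 to 10 family genes on CR, with 5 without CR MKO mouse 2, and 6 to 12 on the control diet. With the 30th percentile filter Gramd3 passed for the averaged diet effect (adjusted p = 0.0463). The interaction of Bex1, 0.01 as reported and far from any call, was -0.079 with array weights and ran from -0.089 to 0.097 without single mice. Deviations of mice of different groups that share a replicate number had a mean r of 0.04 (37 pairs, range -0.36 to 0.35). For 216 other pairs the mean was -0.01 (range -0.43 to 0.50). The difference was not tested, so a weak pairing cannot be told from none by the replicate number. With the number as a replicate block the calls were 7 on CR, 11 on the control diet, 3 for the diet effect and 0 for the interaction. Family genes called were then 9 on CR and 10 on the control diet. The causes of these shifts were not tested.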

Other observations

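One further probe set, 1428525_at, names Pnmal1 together with 4930488B01Rik and so was not counted with the 20. It differed between MKO and FLOX by -0.02 on CR (95% interval -0.13 to 0.09) and by 0.00 on the control diet (-0.11 to 0.12), and its deviations correlated with those of 1439288_at at r = 0.37. With 1439289_s_at, at 0.01 and -0.02, 2 of the 3 probe sets naming Pnmal1 thus showed no called difference on either diet, and the difference described for Pnmal1 is that of the brightest 1.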
